A study of Xenopus laevis with 10 samples.

Results

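The data described here are RNA-seq libraries of intestine from fed and unfed tadpoles of the frog Xenopus laevis at 10 days post fertilization (dpf), the youngest age of the series. The libraries were chosen by sample title and column name, and there were 4 of the 10 in the series: 1 fed and 1 unfed library from each of 2 experiments. The 6 other libraries were fed and unfed intestine at 13 dpf in both experiments and at 16 dpf in experiment 2. All tadpoles were kept at 19 °C, and the tubes of 20 to 26 tadpoles were pooled for each stage, so each library is a pool. No allele, transgene or drug is named for any group, and feeding is the difference between them. The labels used here give neither the diet nor the day on which feeding began, and they do not say whether the experiments used separate clutches. What the p-values gauge is thus the spread among these libraries, and part of it may be technical.

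A tadpole lives on maternal yolk until its mouth opens and its coiled gut begins to take up food. In fed vertebrates, insulin and amino acids activate mTOR signalling, which favours protein synthesis and cell growth, while FoxO and CREB factors switch on genes for gluconeogenesis and autophagy when nutrients are short. Cells make cholesterol and unsaturated fatty acids through enzymes whose genes are under SREBP control, and the enterocyte, the absorptive cell of the gut, also takes up dietary lipid and packs it into lipoproteins. Xenopus laevis has a duplicated genome, and a gene can be present as an L and an S copy, named here as separate genes.

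For 2 libraries of experiment 1 the title and the stage field of the labels disagreed. The unfed library titled 10 dpf has 13 dpf in its stage field, and a fed library titled 13 dpf has 10 dpf there. Titles and column headers were used throughout. Ages from the stage field, tried as an alternative, leave 1 unfed library at 10 dpf, that of experiment 2. The same alternative places the fed library titled 13 dpf in the fed 10 dpf group, so both 10 dpf groups change. Why calls were lost under it was not tested. Gene totals at 10 dpf were 8362019 and 9018965 reads in the fed libraries of experiments 1 and 2, against 9934700 and 6999502 reads in the unfed libraries. Intestinal markers were present in all 4 libraries: vil1.L, which encodes the microvillus protein villin, had 1120 to 1679 CPM (a gene's reads scaled to a common library size), krt20.L had 1565 to 1930 CPM and the gut transcription factor gene cdx2.L had 22.4 to 26.3 CPM. The liver gene alb.S was at 0 in all of them, and the insulin gene copies ins.L and ins.S were between 0.540 and 1.46 CPM. Other genes of these organs had reads in all of them. A list of liver genes without apoa1, apob and tf summed to between 332 and 887 CPM. Exocrine pancreas genes summed to between 258.5 and 1081 CPM. Whether the pools held tissue of these organs was not tested. In every pair of values below, experiment 1 comes before experiment 2.

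Fed and unfed intestine already differed widely at this age, in both directions. Of 23825 genes tested with edgeR's quasi-likelihood test, with all 10 libraries in the fit and the experiment as a block, 4888 (20.5%) passed an adjusted p of 0.05 at 10 dpf. Of these, 2742 genes (11.5%) were higher in fed intestine and 2146 (9.01%) were lower. Among them, 1807 were more than 2-fold higher and 1576 more than 2-fold lower, and 4883 had the same sign in both experiments. The median log2 fold change of all tested genes was -0.020. Across genes, the fed over unfed log2 ratios of the experiments had a Pearson r of 0.679, and their SD was 0.777 in experiment 1 and 0.961 in experiment 2. Genes are not independent replicates, and this r describes these 4 libraries.

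**Figure D1:**
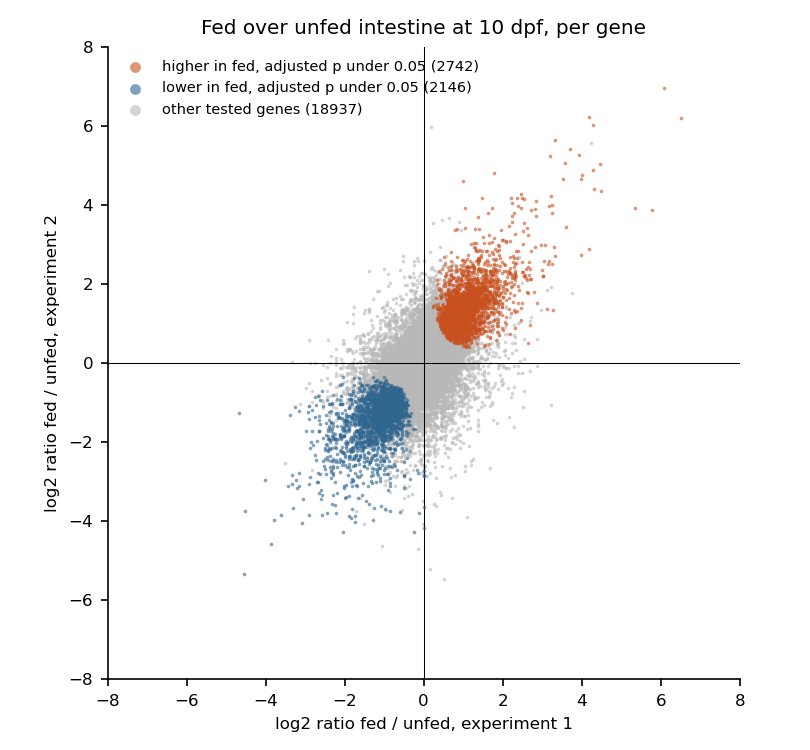
Log2 ratio of fed over unfed intestine at 10 dpf in experiment 1 (x axis) against experiment 2 (y axis), 1 point per tested gene. The 2742 genes higher in fed and the 2146 genes lower in fed lie mostly to the upper right and lower left, and 4883 of the 4888 have the same sign in both experiments.

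The number of calls rested on having both pairs. Without the fed library of experiment 1 or of experiment 2, 1720 and 554 genes were higher and 1036 and 383 were lower. Without the unfed library of experiment 1 or of experiment 2, 1338 and 534 were higher and 1112 and 430 lower. Leaving out the fed 13 dpf library of experiment 2, which enters through the shared spread and the experiment term, gave 3286 lower genes. Without the 2 libraries whose age fields conflict, 2794 genes were higher and 2098 lower, and 3843 of the 4888 calls were shared. Of the 150 called genes picked by the naming rule, 73 passed under every alternative tried. Called genes given below with an SE are among those 73 unless the text gives the alternatives that ended the call. Called genes given with a log2 fold change and no SE lost the call when at least 1 of the 10 dpf libraries was left out, except hmgcs1.L, hmgcs1.S, fdft1.L, ldlr.S, mlxipl.L, fbxo32.S and atg14.L.

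Among the genes with the largest rises were some that make unsaturated fatty acids, sterols and serine and one that carries phosphate. fads1.L, a desaturase of polyunsaturated fatty acid synthesis, had 41.8 and 79.6 CPM in fed intestine, against 0.384 and 0.405 CPM in unfed intestine, where 4 and 3 reads were counted. Its log2 fold change was 7.14 ± 0.34 (SE; adjusted p = 2.25e-06). slc34a2.S, a sodium-dependent phosphate transporter, had 179 and 431 CPM in fed intestine, against 1.73 and 5.67 CPM in unfed intestine (log2 fold change 6.39 ± 0.65, adjusted p = 0.00100). For both genes the fed libraries lay far above the unfed ones in each experiment, with no overlap. Called genes were picked by a test on these libraries, so a lack of overlap, here and below, describes their values and adds no support.

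msmo1.L, an enzyme that removes methyl groups from sterol precursors, had 193 and 542 CPM in fed intestine, against 10.4 and 7.02 CPM in unfed intestine (5.18 ± 0.47 on the log2 scale), and its S copy rose by 5.07 ± 0.45. sqle.L, squalene monooxygenase, had 24.1 and 38.7 CPM in fed intestine, against 0.864 and 0.945 CPM in unfed intestine (5.07 ± 0.33). psat1.L, an aminotransferase of serine synthesis, had 92.7 and 131 CPM in fed intestine, against 4.51 and 4.18 CPM in unfed intestine (4.71 ± 0.44). These genes separated fed from unfed libraries in both experiments, as did a gene described as cytoplasmic acetyl-coenzyme A synthetase-like, the enzyme that makes acetyl-CoA from acetate (4.75 ± 0.51), and sqle.S (4.69 ± 0.33). ppp1r3c.1.L, which brings a phosphatase to glycogen particles, had 111 and 86.6 CPM in fed intestine, against 2.50 and 5.53 CPM in unfed intestine (4.67 ± 0.42).

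Both copies of inhbc.1, named after inhibin beta chains, which form ligands of the activin family, also rose. inhbc.1.L had 29.2 and 27.5 CPM in fed intestine, against 1.25 and 1.08 CPM in unfed intestine (4.61 ± 0.31). inhbc.1.S had 54.6 and 25.1 CPM in fed intestine, against 0.768 and 1.48 CPM in unfed intestine (5.17 ± 0.71), and missed the threshold without the fed library of experiment 2 (adjusted p = 0.0566). elovl2.L, which elongates polyunsaturated fatty acids, had 69.3 and 48.8 CPM in fed intestine, against 2.88 and 2.16 CPM in unfed intestine (4.56 ± 0.92, adjusted p = 0.0291). Its groups did not overlap, but its adjusted p was 0.0566, 0.114 and 0.206 without the fed library of experiment 1 or the unfed library of experiment 1 or 2, 0.0829 and 0.0852 without an unfed 13 dpf library, and 0.0729 with no filter on low counts.

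The genes with the largest falls included regulators known from nutrient shortage and genes of lipid uptake and storage. crebrf.S, a regulator of CREB3 proteins that rises on starvation in mammalian cells, had 0.251 and 0.485 CPM in fed intestine, against 11.0 and 9.45 CPM in unfed intestine (-4.73 ± 0.43, adjusted p = 0.000165). cd36.S, a membrane protein that binds and takes up fatty acids, had 5.26 and 5.70 CPM in fed intestine, against 66.8 and 85.4 CPM in unfed intestine (-3.79 ± 0.42). dgat2.S, which makes triglyceride, had 19.2 and 12.9 CPM in fed intestine, against 184 and 102 CPM in unfed intestine (-3.12 ± 0.29). In each case both fed libraries were below both unfed libraries.

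The other falls that held were faah.1.S, whose product breaks down fatty acid amides (-3.40 ± 0.36), tnfsf10.L, the death ligand TRAIL (-3.25 ± 0.25), ypel1.L (-3.23 ± 0.27), pmm2.L, a phosphomannomutase gene (-3.00 ± 0.27), and klhl24.L, an adaptor of a ubiquitin ligase (-2.98 ± 0.29). tnfsf10.L had 4.13 and 5.22 CPM in fed intestine, against 44.1 and 45.2 CPM in unfed intestine, and its pairs were nearly the same in both experiments.

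Other large falls depended on single libraries. A gene described as aquaporin-10-like, a water and glycerol channel, had 1.0 and 1.33 CPM in fed intestine, against 28.7 and 63.3 CPM in unfed intestine (-5.31 ± 1.04, adjusted p = 0.0285). Its adjusted p was 0.126 and 0.143 without the fed library of experiment 1 or 2, and 0.0755 with no filter on low counts. XB5953480.L, which has no described function here, had 0.251 and 2.18 CPM in fed intestine, against 6.91 and 57.9 CPM in unfed intestine (-4.50 ± 0.96). Its adjusted p of 0.0298 became 0.132 and 0.182 without the fed library of experiment 1 or 2, 0.0518 without the unfed library of experiment 2, 0.0874 with no filter, 0.072 with no block and 0.155 with ages from the stage field. Fed and unfed libraries did not overlap for these 2 genes, which were picked for large differences in the same libraries.

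cxcl8.S, a chemokine that attracts neutrophils, had 0.501 and 2.43 CPM in fed intestine, against 2.78 and 51.8 CPM in unfed intestine (-3.91 ± 0.86, adjusted p = 0.0268). Its adjusted p was 0.108 and 0.355 without the fed library of experiment 1 or 2, 0.231 without the unfed library of experiment 2, 0.0906 and 0.0792 without an unfed 13 dpf library, 0.0841 with no filter and 0.223 with no block. A gene described as ryanodine receptor 1-like, a calcium release channel, had 0.752 and 0.485 CPM in fed intestine, against 25.1 and 1.48 CPM in unfed intestine (-4.16 ± 0.62, adjusted p = 0.00176). The high value was that of the unfed library of experiment 1, whose age fields conflict. Its adjusted p was 0.189 without the fed library and 0.0563 without the unfed library of experiment 1, 0.0613 without both libraries of conflicting age, 0.241 with no block and 0.21 with ages from the stage field.

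**Figure D2:**
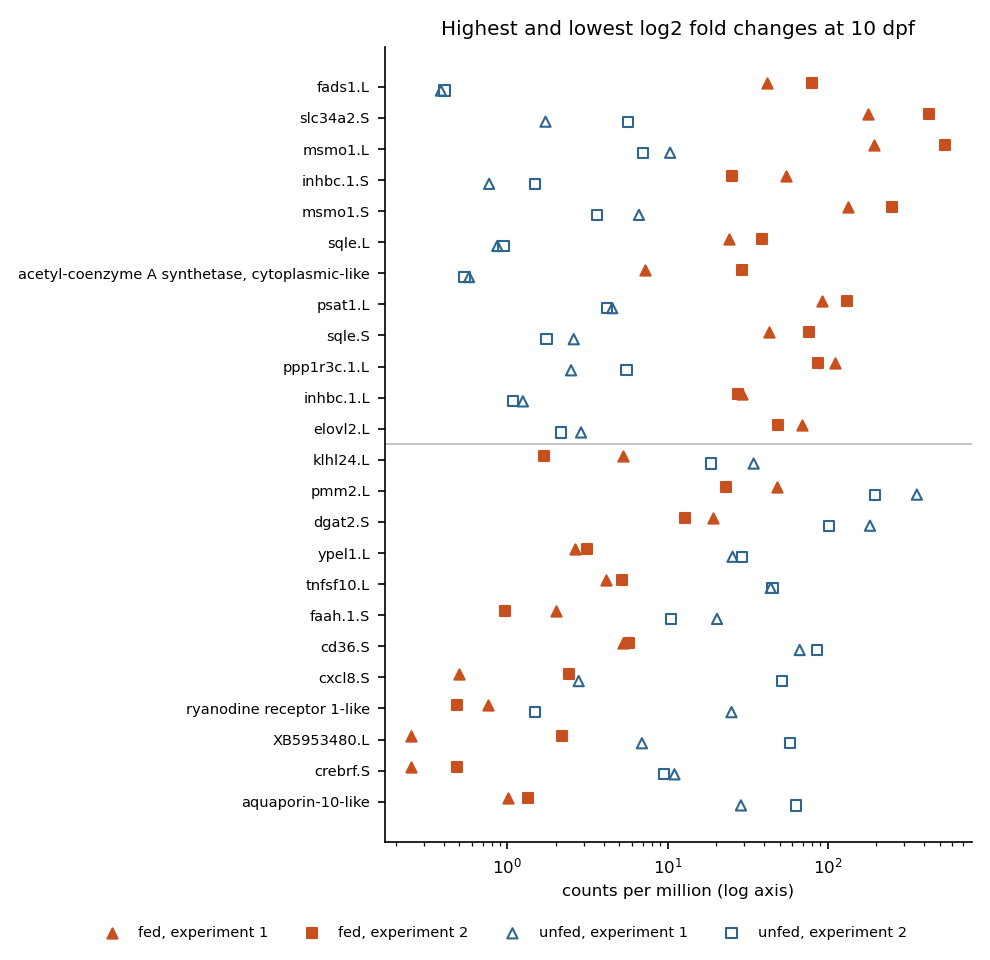
CPM on a log axis of the 12 highest (top) and 12 lowest log2 fold changes at 10 dpf among called genes with a mean of at least 5 CPM and an interpretable name; filled orange symbols are fed and open blue symbols unfed libraries, triangles experiment 1 and squares experiment 2. The fed and unfed libraries do not overlap for any of the genes, and the smallest gaps are those of cxcl8.S (2.43 against 2.78 CPM) and the ryanodine receptor gene (0.752 against 1.48 CPM). The genes were picked for large differences in these libraries, so the lack of overlap adds no support.

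To describe the response by function, 36 gene lists were counted, with the share of all tested genes that passed as the background: 11.5% higher and 9.01% lower. Both homeologs of a gene count as members. Medians over a list are of fitted log2 fold changes, and those of all tested genes have a median of -0.020. Counted over the lists, with a gene in several lists counted in each, members had 538 calls, against 467 by DESeq2, 262 with no block and 360 with ages from the stage field. Without 1 of the 10 dpf libraries there were 383 and 160 calls (fed library of experiment 1 or 2) and 366 and 161 calls (unfed library of experiment 1 or 2), and the change of each list is given with it.

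**Figure D3:**
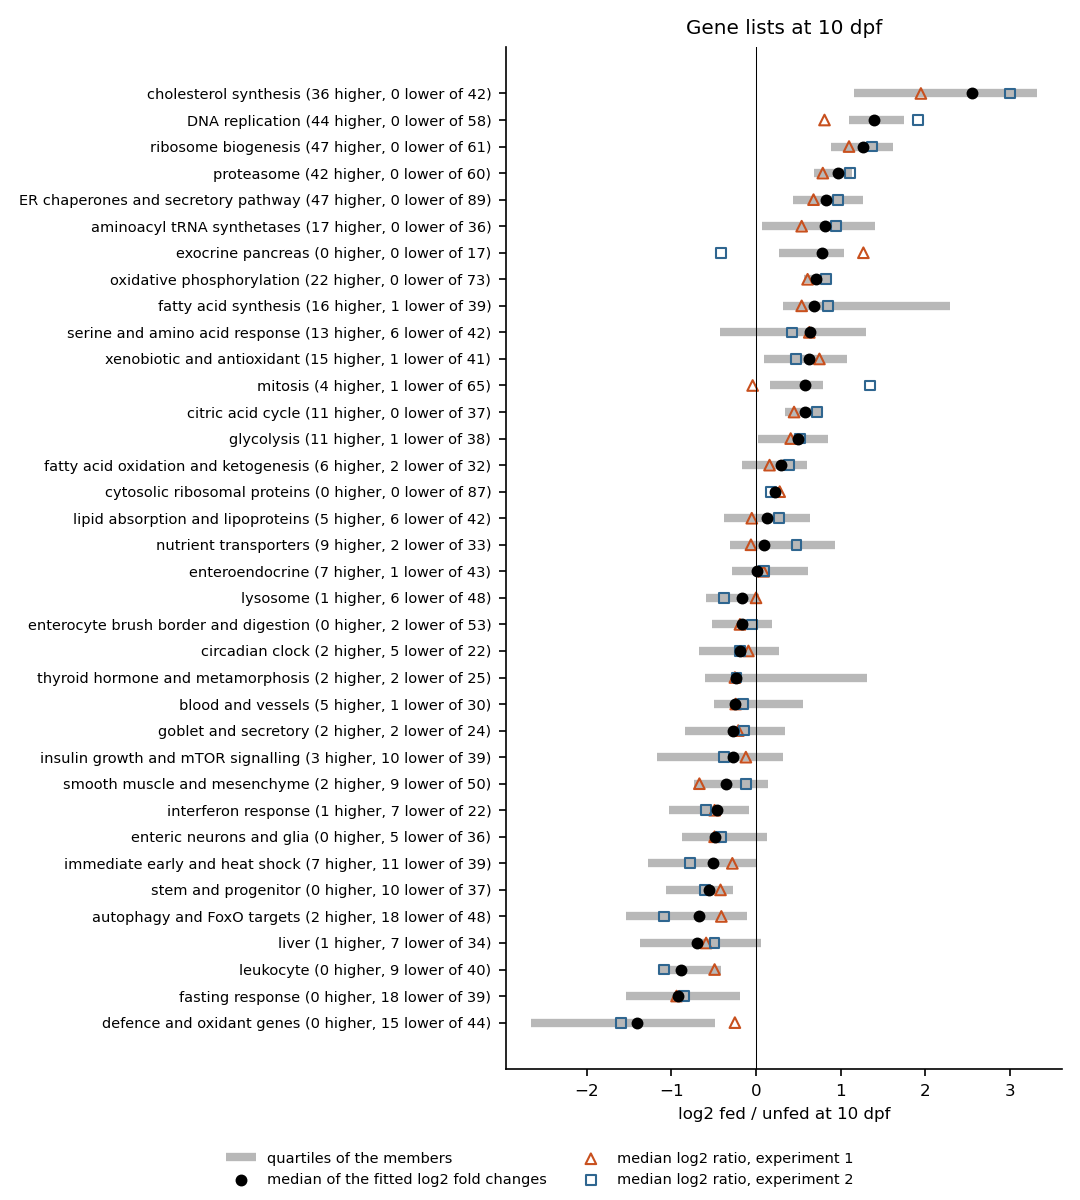
Fed over unfed log2 values at 10 dpf for 36 gene lists; the grey bar spans the quartiles of the members, the black point is the median of the fitted log2 fold changes, and the open triangle and square are the median log2 ratios of experiments 1 and 2. Row labels give how many tested members passed the test; cholesterol synthesis is highest (2.56) and defence and oxidant genes are lowest (-1.41), and the experiments differ most for exocrine pancreas, mitosis, and defence and oxidant genes.

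Cholesterol synthesis was the list with the highest median. Of its 42 tested members 36 rose and 0 fell, with a median of 2.56, and the median ratio was 1.95 in experiment 1 and 3.0 in experiment 2. The called members ran through the pathway. hmgcs1.L and hmgcs1.S, which make HMG-CoA, rose by 4.10 and 4.55, and fdft1.L, which makes squalene, by 2.63. cyp51a1.L, the lanosterol demethylase, had 51.7 and 134 CPM in fed intestine, against 4.13 and 3.78 CPM in unfed intestine (4.35 ± 0.35, adjusted p = 0.000115). Its fed libraries exceeded both unfed libraries. The LDL receptor gene ldlr.S rose by 1.42 while ldlr.L did not pass (-0.17). The list's summed level was 3115 and 5259 CPM in fed intestine, against 870 and 760 CPM in unfed intestine.

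Fatty acid synthesis changed for a part of its members: 16 of 39 rose, 1 fell, and the median was 0.68. The rises included fatty acid synthase, desaturases and elongases. fasn.L had 28.3 and 31.5 CPM in fed intestine, against 2.69 and 3.91 CPM in unfed intestine (3.20 ± 0.29, adjusted p = 0.000165). elovl5.L, an elongase of polyunsaturated fatty acids, had 192 and 322 CPM in fed intestine, against 33.1 and 27.4 CPM in unfed intestine (3.03 ± 0.32), and elovl5.S rose by 2.93 ± 0.30. The member that fell was mlxipl.L, which encodes the sugar-responsive factor ChREBP (-2.05). srebf1.S (0.07) and acaca.S (0.26), the SREBP-1 and acetyl-CoA carboxylase genes, did not pass. The count of rises was 11 and 9 without the fed library of experiment 1 or 2, 10 and 8 without the unfed library of experiment 1 or 2, and 9 with no block. For cholesterol synthesis the same 4 exclusions gave 33, 27, 32 and 26.

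Some genes of glycolysis and of mitochondrial energy metabolism rose, though most members did not pass. In glycolysis 11 of 38 members rose and 1 fell, with a median of 0.50. pgam1.L, a phosphoglycerate mutase, had 72.2 and 133 CPM in fed intestine, against 19.3 and 30.1 CPM in unfed intestine (2.03 ± 0.24, adjusted p = 0.000481). hk2.L, a hexokinase, fell by 1.5. In the citric acid cycle 11 of 37 rose and 0 fell (median 0.58). sucla2.L, a subunit of succinyl-CoA synthetase, had 46.7 and 58.7 CPM in fed intestine, against 24.7 and 17.1 CPM in unfed intestine (1.35 ± 0.24, adjusted p = 0.00335), with adjusted p of 0.0621 and 0.0789 without the fed or the unfed library of experiment 2. In oxidative phosphorylation 22 of 73 rose and 0 fell, and all 73 had log2 fold changes above 0, between 0.16 and 1.69 (median 0.71). uqcrb.L, a subunit of respiratory complex III, had 26.7 and 33.2 CPM in fed intestine, against 11.1 and 12.4 CPM in unfed intestine (1.34 ± 0.22, adjusted p = 0.00213). Both fed libraries were above both unfed libraries for these 3 called genes.

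These counts were sensitive to single libraries. Without the fed library of experiment 1 or 2, 6 and 4 glycolysis genes, 6 and 0 citric acid cycle genes and 7 and 1 oxidative phosphorylation genes rose. Without the unfed library of experiment 1 or 2 the counts were 5 and 3, 2 and 0, and 6 and 1. Leaving out the fed 13 dpf library of experiment 1 raised them to 16, 18 and 60, and that of experiment 2 gave 53 oxidative phosphorylation genes. Leaving out an unfed 13 dpf library gave 7 citric acid cycle genes in each case, and leaving out both libraries of conflicting age gave 6. With a length trend removed, the oxidative phosphorylation median was 0.39 and 12 members rose. Fatty acid oxidation had 6 rises and 2 falls among 32 members (median 0.29), and 19 members had a 95% interval within 2-fold either way. The 2 falls were both copies of pdk4, a kinase that shuts off pyruvate use in fasting: pdk4.S had 37.3 and 20.5 CPM in fed intestine, against 138 and 111 CPM in unfed intestine (-2.14 ± 0.26, adjusted p = 0.000653). No oxidation gene rose without the fed library of experiment 2 or without either unfed library, and 10 rose without the fed 13 dpf library of experiment 1.

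The genes of the fasting response that passed were all lower in fed intestine. Of 39 members 18 fell and 0 rose (median -0.92), with median ratios of -0.94 and -0.85 in experiments 1 and 2. The falls included both copies of pck1, the first enzyme of gluconeogenesis (pck1.L -1.32, pck1.S -1.53), glucose-6-phosphatase copies (g6pc1.1.S -2.07) and igfbp1.S, an IGF-binding protein (-1.55). angptl4.S, a fasting-induced inhibitor of lipoprotein lipase, had 66.5 and 39.8 CPM in fed intestine, against 161 and 167 CPM in unfed intestine (-1.67 ± 0.26, adjusted p = 0.00191). crebrf.L followed crebrf.S, with 1.0 and 0.607 CPM in fed intestine, against 7.30 and 8.91 CPM in unfed intestine (-3.31 ± 0.45). The fed libraries of both genes were below both unfed libraries. foxo1.L (-0.16), foxo1.S (-0.26), fbp1.L (-0.31) and fbp1.S (-0.23) did not pass. The count of falls was 12 and 7 without the fed library of experiment 1 or 2, 10 and 8 without the unfed library of experiment 1 or 2, and 9 with no block.

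Among autophagy genes and targets of FoxO factors 18 of 48 fell and 2 rose (median -0.67; -0.41 and -1.09 in experiments 1 and 2). The median was -1.26 and -0.34 without the fed 10 dpf library of experiment 1 or 2. ccng2.L, a cyclin that FoxO factors induce in mammals, had 10.3 and 6.55 CPM in fed intestine, against 77.2 and 49.5 CPM in unfed intestine (-2.91 ± 0.28, adjusted p = 0.000165). pik3ip1.L, an inhibitor of PI3 kinase, had 6.77 and 6.31 CPM in fed intestine, against 39.0 and 34.8 CPM in unfed intestine (-2.50 ± 0.23). Both genes separated fed from unfed libraries without overlap. fbxo32.S, the ubiquitin ligase atrogin-1, fell by 4.07, and the autophagy genes ulk1.S, atg14.L and map1lc3b.S fell by 1.75, 2.02 and 1.62. The rises were bcl6.L (1.15) and gadd45a.S (0.93). The count of falls was 11 without the fed library of experiment 2 and 14 to 20 without any other 10 dpf library, and the count of rises was 0 or 1 without any 1 of the 10 dpf libraries, 4 without either fed 13 dpf library and 1 without the unfed 13 dpf library of experiment 1; 20 fell and 0 rose without both libraries of conflicting age. In the lysosome list 6 of 48 fell, 1 rose and 32 had intervals within 2-fold (median -0.16). The share of falls was not far from the 9.01% of all genes tested. gusb.S, a glucuronidase, fell by 1.45 ± 0.25 (adjusted p = 0.00305). Lysosome falls numbered 3 and 1 without the fed library of experiment 1 or 2, 4 and 1 without the unfed library of experiment 1 or 2, 4 without either unfed 13 dpf library, 2 with DESeq2 and 8 without both libraries of conflicting age, and no lysosome gene rose under any of these.

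Among signalling genes, 10 of 39 insulin, growth and mTOR pathway members fell and 3 rose (median -0.27). Both insulin receptor copies fell, insr.L by 1.49 ± 0.27 (adjusted p = 0.00332, and 0.102 with no block) and insr.S by 1.74. insr.L had 7.77 and 4.25 CPM in fed intestine, against 21.3 and 12.3 CPM in unfed intestine. The substrate genes irs1.L (-1.21) and irs2.L (-1.33), igf1r.L (-1.48) and igf1r.S (-1.17) and the mTOR inhibitor genes tsc1.L (-1.17) and tsc2.L (-1.25) also fell, while the rises were pik3r1.L (0.95), pik3r1.S (1.34) and rps6kb1.L (0.87). The falls numbered 7 and 3 without the fed library of experiment 1 or 2, and 7 and 1 without the unfed library of experiment 1 or 2; the rises were 0 without the fed library of experiment 2 or either unfed library, and 5 without the fed 13 dpf library of experiment 1.

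Genes for serine synthesis rose beside a mixed amino acid response. Of 42 members 13 rose and 6 fell (median 0.64). psph.L, the phosphatase that completes serine synthesis, had 84.5 and 99.2 CPM in fed intestine, against 30.1 and 13.6 CPM in unfed intestine (2.18 ± 0.31, adjusted p = 0.00139), and shmt2.L, which passes a carbon from serine to folate in mitochondria, had 52.2 and 62.7 CPM in fed intestine, against 18.1 and 16.9 CPM in unfed intestine (1.70 ± 0.22). Both were higher in both fed libraries. The ATF4 genes atf4.L and atf4.S did not pass (0.22 and 0.17), and the stress genes ddit3.S (-1.29), atf3.S (-1.55) and nupr1.L (-1.72) fell. Of 36 tRNA synthetase genes, which charge tRNAs for translation, 17 rose and 0 fell (median 0.82), among them farsa.S with 19.2 and 48.7 CPM in fed intestine, against 3.84 and 8.10 CPM in unfed intestine (2.47 ± 0.29). Without the fed library of experiment 1 or 2, 9 and 5 amino acid genes and 17 and 4 synthetase genes rose; without the unfed library of experiment 1 or 2, 7 and 4, and 10 and 9. The falls of the amino acid list were 4 and 1, and 6 and 1, under the same exclusions.

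Genes of ribosome assembly rose, while no gene of the cytosolic ribosomal proteins passed. Of 61 ribosome biogenesis genes 47 rose and 0 fell (median 1.27; 1.1 and 1.37 in experiments 1 and 2). wdr43.L, a factor for rRNA transcription and processing, had 33.0 and 47.9 CPM in fed intestine, against 9.12 and 13.6 CPM in unfed intestine (1.83 ± 0.22, adjusted p = 0.000532). utp15.S, of the complex that processes the small subunit, had 47.0 and 60.8 CPM in fed intestine, against 16.8 and 14.2 CPM in unfed intestine (1.79 ± 0.23). Neither gene overlapped between the groups. Of 87 cytosolic ribosomal protein genes 0 passed in either direction by edgeR and by DESeq2, 0 had an unadjusted p under 0.05 by edgeR, and 29 had intervals within 2-fold. Their median was 0.22, with 86 of 87 above 0, and -0.13 with a length trend removed. rpl3.L had 3052 and 3373 CPM in fed intestine, against 2638 and 2695 CPM in unfed intestine (0.26 ± 0.40, adjusted p = 0.671). The groups' rpl3.L values did not overlap, but the difference was smaller than its SE. Ribosome biogenesis rises numbered 43 and 13 without the fed library of experiment 1 or 2 and 27 and 23 without the unfed library of experiment 1 or 2, and 26 with no block.

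Protein folding and turnover genes rose. In the list of endoplasmic reticulum chaperones and secretory pathway genes 47 of 89 rose and 0 fell (median 0.83). manf.L, a secreted protein of the unfolded protein response, had 129 and 137 CPM in fed intestine, against 20.2 and 23.2 CPM in unfed intestine (2.63 ± 0.27, adjusted p = 0.000251), and dnajb9.S, a co-chaperone of BiP, had 137 and 103 CPM in fed intestine, against 22.4 and 23.9 CPM in unfed intestine (2.38 ± 0.25). Of 60 proteasome genes 42 rose and 0 fell (median 0.97). psma1.L, a core particle subunit, had 35.1 and 54.7 CPM in fed intestine, against 12.8 and 17.5 CPM in unfed intestine (1.55 ± 0.22, adjusted p = 0.00117). These 3 genes were higher in both fed libraries than in both unfed libraries. Without the fed library of experiment 1 or 2 the rises were 35 and 15 for the secretory list and 25 and 8 for the proteasome; without the unfed library of experiment 1 or 2 they were 28 and 10, and 27 and 2, and with no block 28 and 19.

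DNA replication genes rose in both experiments, while the median ratio of mitosis genes was above 0 in experiment 2 only. Of 58 replication genes 44 rose and 0 fell (median 1.40). cdca7.L, a nuclear protein of proliferating cells, had 39.1 and 58.0 CPM in fed intestine, against 9.70 and 11.7 CPM in unfed intestine (2.15 ± 0.23, adjusted p = 0.000267). mcm2.L, of the replicative helicase, had 31.3 and 70.1 CPM in fed intestine, against 10.8 and 8.37 CPM in unfed intestine (2.29 ± 0.34), and orc1.L, of the origin recognition complex, rose by 2.11 ± 0.27. Each was above both unfed libraries in both fed libraries. The median ratio was 0.81 in experiment 1, with 54 of 58 members above 0, and 1.92 in experiment 2, with 57 of 58 above 0.

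Of 65 mitosis genes 4 rose and 1 fell (median 0.58), and 59 of 65 had log2 fold changes above 0. The median was -0.15 without the unfed 10 dpf library of experiment 2 and 1.59 without that of experiment 1. The median ratio was -0.04 in experiment 1, with 29 members above 0, and 1.35 in experiment 2, with 64 above 0. Their summed level was 754 and 876 CPM in fed intestine, against 788 and 327 CPM in unfed intestine, so that the unfed library of experiment 1, whose age fields conflict, was at the level of the fed libraries. Unfed intestine titled 13 dpf, the age in that library's stage field, summed to 191 and 253 CPM in experiments 1 and 2. The source of that library's level was not tested. mki67.S, the proliferation antigen Ki-67, had 18.5 and 29.1 CPM in fed intestine, against 11.4 and 7.15 CPM in unfed intestine (1.28 ± 0.32, adjusted p = 0.0156). Its adjusted p was 0.148 and 0.225 without the fed or the unfed library of experiment 2, 0.0554 with no block and 0.0705 with ages from the stage field.

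Without the unfed library of experiment 1, 38 mitosis genes rose, and without both libraries of conflicting age 45 rose and 1 fell, with a median of 1.48. Without the fed library of experiment 1 or 2, or the unfed library of experiment 2, 2, 0 and 0 rose, and 1 rose with DESeq2. Replication rises numbered 38, 11 and 9 under these last exclusions, 45 without the unfed library of experiment 1, and 48 without both libraries of conflicting age. In bulk tissue, fewer cells of a type and less RNA per cell cannot be told apart.

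**Figure D4:**
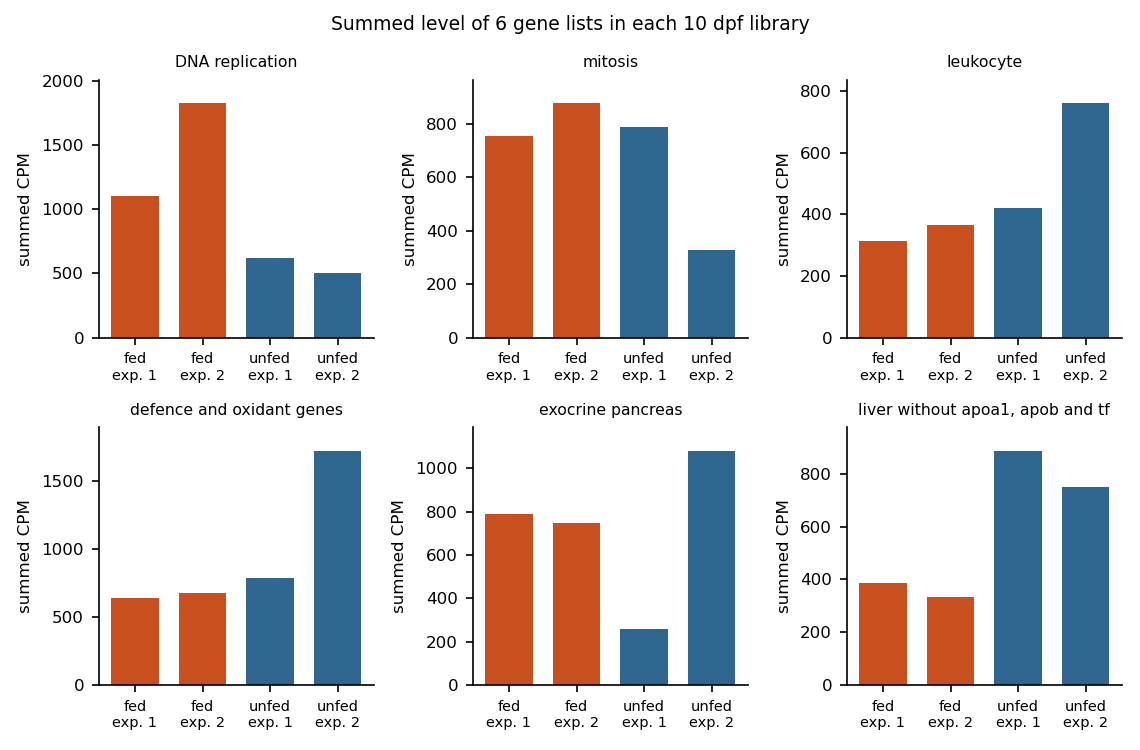
Summed CPM of 6 gene lists in the 4 libraries at 10 dpf, fed (orange) left of unfed (blue), 1 bar per library, axes from 0. DNA replication is higher in both fed libraries; mitosis is low in the unfed library of experiment 2 alone (327 CPM); leukocyte and defence sums are highest in that library (760 and 1720 CPM); and the exocrine pancreas sum is lowest in the unfed library of experiment 1.

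With all libraries in the fit, few genes of the absorptive apparatus passed the test at this age. Of 53 brush border and digestion genes 0 rose and 2 fell (median -0.17), 25 had intervals within 2-fold and 3 within 1.5-fold. The 2 falls, in the keratin gene krt8.2.S (-1.0 ± 0.26, adjusted p = 0.0205) and the alkaline phosphatase gene alpi.1.L (-1.54 ± 0.48, adjusted p = 0.0406), did not hold: krt8.2.S missed the threshold without any 1 of the 4 libraries at 10 dpf and with no block, and alpi.1.L without 3 of these libraries, without the unfed 13 dpf library of experiment 2, with no block, with DESeq2, with ages from the stage field, with transcript sums and without both libraries of conflicting age. In the brush border list 10 genes fell without the fed 13 dpf library of either experiment, 2 of the others rising without that of experiment 1, and 1 fell without the unfed 13 dpf library of experiment 2. With the 4 libraries at 10 dpf alone, 2 of 51 tested members rose and 13 fell. Of all 21891 genes tested in that fit, 3494 were higher and 3174 lower. There the list's share of falls was above that of all genes, and its share of rises was below. The list's summed level was 17133 and 18182 CPM in fed intestine, against 22443 and 18488 CPM in unfed intestine.

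Lipid absorption and lipoprotein genes went both ways, with 5 rises and 6 falls of 42 (median 0.13, and -0.11 without the fed 10 dpf library of experiment 2). These shares are close to the 11.5% and 9.01% of all genes tested. Beside the falls in cd36.S and dgat2.S given above, pnpla2.L, a triglyceride lipase, fell by 1.55 ± 0.26 (adjusted p = 0.00279), lpin1.S by 1.78 and abca1.S, a cholesterol exporter, by 1.37. The lipid droplet genes plin2.L (1.91) and plin2.S (1.83) rose. cidec.L, another lipid droplet protein gene, had 60.8 and 70.1 CPM in fed intestine, against 21.3 and 14.8 CPM in unfed intestine (1.89 ± 0.31, adjusted p = 0.00262, and 0.139 with ages from the stage field). apob.L (-0.27), mttp.1.L (0.15) and fabp2.L (0.22), of lipoprotein assembly and fatty acid binding, did not pass. Rises and falls numbered 4 and 3, and 2 and 4, without the fed library of experiment 1 or 2, 3 and 5, and 2 and 4, without the unfed library of experiment 1 or 2, 9 and 6 without either fed 13 dpf library, and 8 and 7 without both libraries of conflicting age.

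Some nutrient transporter genes rose, among them 4 genes of phosphate carriers. Of 33 members 9 rose and 2 fell (median 0.09), and the highest values were those of slc34a2.S and slc34a2.L. slc34a2.L had 667 and 759 CPM in fed intestine, against 78.5 and 94.6 CPM in unfed intestine (3.04 ± 0.49, adjusted p = 0.00273), without overlap. The phosphate carriers slc20a1.L (0.75) and slc20a1.S (1.08) and the amino acid carriers slc7a8.L (1.21) and slc7a8.S (1.42) also rose, as did slc7a9.L (1.28), slc30a10.S (0.94) and the lactate and pyruvate carrier gene slc16a1.L (2.21). slc6a19.S, a neutral amino acid carrier, fell by 1.40, and slc7a7.L, a basic amino acid carrier, by 0.99. The glucose transporter genes slc5a1.2.L (-0.37), slc2a2.L (0.92) and slc2a2.S (0.53) did not pass. The rises were 8 and 2 without the fed library of experiment 1 or 2 and 2 and 3 without the unfed library of experiment 1 or 2, and no member fell without any 1 of these; 1 fell without the unfed 13 dpf library of experiment 2.

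Exocrine pancreas genes, which the tubes could carry, had no call at 10 dpf. Of 17 tested members 0 passed by edgeR or DESeq2, and 1 had an unadjusted p under 0.05 by edgeR. Their summed level was 787 and 748 CPM in fed intestine, against 258 and 1081 CPM in unfed intestine. ctrc.L, a chymotrypsin, had 160 and 138 CPM in fed intestine, against 51.6 and 196 CPM in unfed intestine (0.83 ± 1.09, adjusted p = 0.642), so that its groups overlapped. The trypsin gene copy prss1.L and the elastase gene copies cela1.4.L and cela3b.L were at 0 in all 4 libraries. Without both libraries of conflicting age 3 members fell.

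Some liver genes were lower in fed tubes. Of 34 tested members 7 fell and 1 rose (median -0.70), and the defining copies alb.S and hao1.L were at 0 in all 4 libraries. With no block 1 member fell and 0 rose, and with ages from the stage field the median was -0.09. Without both libraries of conflicting age the median was 0.01, with 5 falls and 1 rise. cyp7a1.L, the rate-limiting enzyme of bile acid synthesis, had 31.5 and 22.6 CPM in fed intestine, against 222 and 95.2 CPM in unfed intestine (-2.43 ± 0.47, adjusted p = 0.0084). Its adjusted p was 0.0769 without the fed library of experiment 1, 0.064 without the unfed library of experiment 2, 0.0711 with no block and 0.814 with ages from the stage field. rbp4.L, a retinol carrier, fell by 1.45 ± 0.23 (adjusted p = 0.00195, 0.151 with no block and 0.209 with ages from the stage field). The whole list summed higher in fed intestine, with 38675 and 34068 CPM, against 30762 and 21694 CPM in unfed intestine, and its apoa1 and apob genes, which gut also expresses, hold most of those reads. Without apoa1, apob and tf, 3 of the most abundant genes, a choice made after their values were seen, the sum was lower in fed intestine, at 386 and 332 CPM, against 887 and 748 CPM in unfed intestine. The falls numbered 5 and 3 without the fed library of experiment 1 or 2, and 3 and 2 without the unfed library of experiment 1 or 2; 10 fell without the fed 13 dpf library of experiment 2, and 2 rose without any 1 of the 4 libraries at 13 dpf. Whether liver tissue in the pools had a part in these values was not tested.

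Among secretory cells, a few hormone genes rose. Of 43 enteroendocrine genes 7 rose and 1 fell (median 0.01). The share of rises was not far from the 11.5% of all genes tested. gcg.L, the proglucagon gene, had 58.5 and 47.3 CPM in fed intestine, against 21.1 and 16.9 CPM in unfed intestine (1.47 ± 0.23, adjusted p = 0.00191). pyy.S, peptide YY, had 42.6 and 29.4 CPM in fed intestine, against 15.4 and 12 CPM in unfed intestine (1.38 ± 0.22). Both separated the groups. cck.S (1.62), cck.L (1.09), nts.S (1.07), gip.S (0.98) and chga.L (0.98) were the other rises and scg2.L (-0.87) the fall, while neurod1.L (0.30) and insm1.L (0.76), which mark the lineage, did not pass. The rises numbered 3 without the fed library of experiment 1 or 2 or the unfed library of experiment 1, 2 without the unfed library of experiment 2 and 9 without either fed 13 dpf library, while 2 and 3 fell without the fed 13 dpf library of experiment 1 or 2 and 0 fell without each 10 dpf library but the fed one of experiment 1; 5 rose and 0 fell without both libraries of conflicting age.

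Of 24 goblet and secretory genes 2 rose and 2 fell (median -0.27), shares below those of all genes tested. The rises were agr2.L and tff3.1.S, and the falls were ern2.L and clca1.3.L. The calls of tff3.1.S, ern2.L and clca1.3.L were each lost when at least 1 of the 10 dpf libraries was left out. agr2.L, a folding factor for mucins, had 328 and 286 CPM in fed intestine, against 132 and 83.8 CPM in unfed intestine (1.51 ± 0.37, adjusted p = 0.0145), with adjusted p of 0.0844 and 0.0794 without the fed library of experiment 1 or 2 and 0.205 without the unfed library of experiment 2. Without the fed library of experiment 1 or 2, 1 and 1 member rose and 1 and 0 fell, 1 rose and 2 fell without the unfed library of experiment 1, and none was called without that of experiment 2. Falls numbered 4 without any 1 of the 4 libraries at 13 dpf, and 3 rose without either fed 13 dpf library.

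Stem and progenitor genes fell in 10 of 37 members and rose in 0 (median -0.56). cd44.S, an adhesion receptor, had 24.6 and 40.9 CPM in fed intestine, against 81.3 and 102 CPM in unfed intestine (-1.52 ± 0.23, adjusted p = 0.00153), and dll4.L, a Notch ligand, had 7.77 and 7.28 CPM in fed intestine, against 23.7 and 26.3 CPM in unfed intestine (-1.74 ± 0.26). Both were lower in both fed libraries. lgr5.L, the marker of the mammalian crypt stem cell, had 1.5 and 0.971 CPM in fed intestine, against 6.53 and 2.70 CPM in unfed intestine (-1.87 ± 0.44, adjusted p = 0.0121). Its adjusted p was 0.0847 and 0.0955 without the fed library of experiment 1 or 2, 0.198 without the unfed library of experiment 1, 0.0505 with DESeq2, 0.0535 with no block, 0.2 with ages from the stage field and 0.19 without both libraries of conflicting age. The falls numbered 5 and 3 without the fed library of experiment 1 or 2, 4 and 3 without the unfed library of experiment 1 or 2, and 6 with DESeq2.

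Some defence genes and leukocyte markers fell, and none of either list rose. Of 44 defence and oxidant genes 15 fell and 0 rose (median -1.41). The median was -0.69 and -0.73 without the fed or the unfed 10 dpf library of experiment 2, and -1.84 and -1.79 without the fed or the unfed 10 dpf library of experiment 1. irf1.S, an interferon regulatory factor, had 5.89 and 5.94 CPM in fed intestine, against 30.1 and 42.4 CPM in unfed intestine (-2.59 ± 0.24, adjusted p = 0.000165). socs3.S, an inhibitor of cytokine signalling, had 1.13 and 1.82 CPM in fed intestine, against 5.28 and 17.5 CPM in unfed intestine (-2.84 ± 0.33). Both had fed libraries below both unfed libraries. The experiments differed in the list as a whole: the median ratio was -0.25 in experiment 1 and -1.60 in experiment 2, and the summed level was 639 and 672 CPM in fed intestine, against 789 and 1720 CPM in unfed intestine.

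Of 40 leukocyte markers 9 fell and 0 rose (median -0.89; -0.49 and -1.09 in experiments 1 and 2), and none was at 0 in all 4 libraries. Their sum was 313 and 364 CPM in fed intestine, against 421 and 760 CPM in unfed intestine, so it moved with the defence genes; their part in that result was not tested. lcp1.L, an actin-bundling protein of white blood cells, had 31.8 and 43.6 CPM in fed intestine, against 68.8 and 88.8 CPM in unfed intestine (-1.07 ± 0.26, adjusted p = 0.015, between 0.0852 and 0.111 without any 1 of the 10 dpf libraries, 0.0837 with no block and 0.101 with ages from the stage field). Falls in defence genes numbered 17 and 4 without the fed library of experiment 1 or 2, 16 and 4 without the unfed library of experiment 1 or 2, 5 with no block and 21 without both libraries of conflicting age. Leukocyte falls numbered 4 and 0, and 6 and 0, under the same 4 exclusions, 0 with no block, and 14 and 16 without the fed 13 dpf library of experiment 1 or 2.

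Of 22 interferon response genes 7 fell and 1 rose (median -0.46). irf9.L, part of the complex that interferon activates, had 4.89 and 4.73 CPM in fed intestine, against 24.2 and 21.5 CPM in unfed intestine (-2.24 ± 0.24, adjusted p = 0.000264), without overlap. mx1.L (-0.20) and usp18.L (-0.02), interferon-induced genes, did not pass. The falls numbered 5 and 2 without the fed library of experiment 1 or 2 and 3 and 2 without the unfed library of experiment 1 or 2, and the rise was absent without any 1 of these or of the unfed 13 dpf libraries and without both libraries of conflicting age.

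Some smooth muscle and mesenchymal genes fell, and 2 rose. Of 50 smooth muscle and mesenchyme genes 9 fell and 2 rose (median -0.35). fn1.S, fibronectin, had 15.9 and 18.4 CPM in fed intestine, against 44.4 and 72.6 CPM in unfed intestine (-1.72 ± 0.25, adjusted p = 0.00123), and myocd.S, a coactivator of smooth muscle genes, fell by 1.62 ± 0.24. cnn2.L, a calponin, had 112 and 147 CPM in fed intestine, against 40.7 and 47.9 CPM in unfed intestine (1.54 ± 0.24). None of these 3 genes overlapped between groups. The contractile genes acta2.L (0.54), myh11.L (-0.27) and tagln.L (0.41) did not pass. The list's summed level went opposite ways in the experiments. It was 11095 and 20010 CPM in fed intestine, against 15521 and 13003 CPM in unfed intestine. In the list of enteric neurons and glia 5 of 36 fell and 0 rose (median -0.49), against 9.01% lower among all genes tested. nos1.L, the nitric oxide synthase of inhibitory neurons, had 11.0 and 11.6 CPM in fed intestine, against 26.2 and 28.2 CPM in unfed intestine (-1.26 ± 0.21, adjusted p = 0.00263). The falls of the first list numbered 2 without any 1 of the 10 dpf libraries, 2 with no block, 3 with ages from the stage field, 5 with DESeq2, 12 without either fed 13 dpf library and 17 with the 4 libraries at 10 dpf alone. Its rises numbered 1 without any 1 of the 10 dpf libraries and 7, beside 5 falls, without both libraries of conflicting age. In the neuronal list 3 fell without either fed library or the unfed library of experiment 1, 1 fell without the unfed library of experiment 2, 8 fell without the fed 13 dpf library of experiment 2, 1 rose without the unfed library of experiment 1, and 2 rose without the fed 13 dpf library of experiment 1 or both libraries of conflicting age.

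Of 30 blood and vessel genes 5 rose and 1 fell (median -0.25), against 11.5% higher and 9.01% lower among all genes tested. slc25a37.S, the mitochondrial iron carrier of red cell precursors, had 8.02 and 7.16 CPM in fed intestine, against 2.30 and 1.35 CPM in unfed intestine (2.04 ± 0.32, adjusted p = 0.00196). The red cell genes hba1.S (-0.86), alas2.L (-1.03) and slc4a1.L (0.93) did not pass. The rises numbered 3 without the fed library of experiment 1 and 2 without any other 10 dpf library, and the fall was lost in all 4 cases, without either unfed 13 dpf library and without both libraries of conflicting age, while 3 and 4 fell without the fed 13 dpf library of experiment 1 or 2.

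In the list of immediate early and heat shock genes 7 of 39 rose and 11 fell (median -0.51), and heat shock and immediate early members went different ways. The rises were the mitochondrial chaperones hspd1.L, hspd1.S, hspe1.L and hspe1.S, the co-chaperone genes hsph1.L and hsph1.S, and myc.L (1.15), while fos.S (-2.40), egr1.L (-1.84), jun.L (-1.23) and dusp1.L (-1.76) were among the falls. hspe1.L had 204 and 236 CPM in fed intestine, against 42.0 and 43.7 CPM in unfed intestine (2.36 ± 0.24, adjusted p = 0.000206), without overlap. The falls numbered 10 and 0 without the fed library of experiment 1 or 2 and 10 and 1 without the unfed library of experiment 1 or 2; the rises were 6 and 2, and 2 and 4. Without both libraries of conflicting age 17 fell.

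Of 41 xenobiotic and antioxidant genes 15 rose and 1 fell (median 0.63). nr1i2.S, the xenobiotic receptor PXR, had 11.7 and 10.2 CPM in fed intestine, against 2.88 and 4.05 CPM in unfed intestine (1.68 ± 0.28, adjusted p = 0.00257), with no overlap. gstp1.L (2.28), nqo1.L (1.60), gclm.L (1.31) and the arylhydrocarbon-induced gene cyp1a1.L (3.32) also rose, and the catalase gene cat.3.L fell by 1.19. The rises numbered 7 and 3 without the fed library of experiment 1 or 2 and 9 and 2 without the unfed library of experiment 1 or 2, and the falls 3 without either fed 13 dpf library and 2 without any 1 of the unfed 13 dpf libraries or the fed 16 dpf library.

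Of 22 circadian clock genes 2 rose and 5 fell (median -0.19). per3.S, a clock repressor, had 16.8 and 19.0 CPM in fed intestine, against 36.6 and 40.2 CPM in unfed intestine (-1.10 ± 0.22, adjusted p = 0.00531, and 0.054, 0.053 and 0.0795 without the fed library of experiment 1 or 2 or the unfed library of experiment 2). The labels used here give no hour of collection. Calls in the clock list fell to 0 rises without any 1 of the 10 dpf libraries, with 1 and 0 falls without the fed and 2 and 0 without the unfed library of experiments 1 and 2, and to 0 and 1 rises without the unfed 13 dpf library of experiment 1 or 2; 0 rose and 3 fell without both libraries of conflicting age. Of 25 thyroid hormone and metamorphosis genes 2 rose and 2 fell (median -0.24), shares near the 11.5% and 9.01% of all genes tested. crym.L, which binds thyroid hormone in the cell, had 14.4 and 10.2 CPM in fed intestine, against 6.62 and 1.89 CPM in unfed intestine (1.70 ± 0.40, adjusted p = 0.0123), but its adjusted p was 0.0525 and 0.121 without the unfed library of experiment 1 or 2, 0.135 without the fed library of experiment 2, 0.283 with no block and 0.339 with ages from the stage field. In the thyroid list 1 gene rose and 1 fell without the fed library of experiment 1, none was called without any other 10 dpf library, and 1 rose and 0 fell without both libraries of conflicting age.

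A missed threshold does not show that a gene was level, so intervals were used to bound the size of the change. An interval within 2-fold does not show that there was no change. Of the tested genes 7853 (33.0%) had a 95% interval of the log2 fold change within 2-fold either way, and 842 (3.53%) within 1.5-fold. Those named here are among the level genes with the highest counts and are not of one kind. cd9.S, a tetraspanin, had 132 and 128 CPM in fed intestine, against 135 and 128 CPM in unfed intestine (-0.02 ± 0.25). sat1.L, which acetylates polyamines, had 126 and 132 CPM in fed intestine, against 128 and 134 CPM in unfed intestine (-0.02 ± 0.26). sec63.L, of the translocation channel into the endoplasmic reticulum, had 152 and 129 CPM in fed intestine, against 145 and 130 CPM in unfed intestine (0.04 ± 0.24). Each of these genes overlapped between the groups.

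Other level genes of the rule were copb2.S (0.02 ± 0.25), plec.S (-0.03 ± 0.24), a gene described as HSP 90-beta-like (-0.01 ± 0.25), bzw1.L (-0.01 ± 0.25), sult2a1.S (-0.06 ± 0.23) and actn4.L (0.04 ± 0.25). The narrow count moved both ways: 0 to 9 genes were within 1.5-fold without any 1 of the 10 dpf libraries, 240 and 280 without an unfed 13 dpf library, 2124 and 2085 without a fed 13 dpf library, 1751 with the 4 libraries at 10 dpf alone, and 73 with DESeq2. Within 2-fold the count was 3797 and 4436 without the fed library of experiment 1 or 2, and 3345 and 4329 without the unfed library of experiment 1 or 2.

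No gene passed a test of whether the fed minus unfed difference at 10 dpf differed between the experiments. By edgeR 0 genes passed, with 650 at an unadjusted p under 0.05, and by DESeq2 0 passed. With single libraries left out, 7 genes passed without the fed 13 dpf library of experiment 1, and 13 and 12 without the unfed 13 dpf library of experiment 1 or 2. It cannot be made without any of the 4 libraries at 10 dpf. As a description, the largest gaps among genes with a mean of at least 20 CPM came from single libraries. ch25h.L, a cholesterol hydroxylase induced by interferon in mammals, had 5.76 and 7.28 CPM in fed intestine, against 4.80 and 88.9 CPM in unfed intestine. bco1.L, which cleaves carotene, had 899 and 88.1 CPM in fed intestine, against 1184 and 905 CPM in unfed intestine, with the fed library of experiment 2 the low one. fabp1.S, a fatty acid binding protein, had 1627 and 2240 CPM in fed intestine, against 847 and 219 CPM in unfed intestine (1.82 ± 0.66, adjusted p = 0.0811).

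With all libraries, more genes passed at 13 dpf than at 10 dpf. The order turned without any 1 of the 4 libraries at 13 dpf, but each such fit leaves 1 library in a 13 dpf group. The 10 dpf groups keep 2 libraries each, so these fits cannot decide the order. At the later age 7396 genes (31.0%) passed, of which 3971 (16.7%) were higher and 3425 (14.4%) lower in fed intestine. Of the 10 dpf calls 79.3% also passed at 13 dpf in the same direction, and these made up 52.4% of the 13 dpf calls. Among genes called at 10 dpf, the median size of the log2 fold change was 1.15 at 13 dpf and 1.19 at 10 dpf. These genes were picked by their 10 dpf test, so the 2 sizes are not compared on equal terms. Of all 23825 tested genes, 13892 had a larger size at 13 than at 10 dpf. 3519 genes passed at 13 dpf alone and 1011 at 10 dpf alone. A gene past the threshold at 1 age only is not shown to differ between the ages: by edgeR 0 genes passed the test of the 13 dpf difference minus the 10 dpf difference, with 1232 (5.17%) at an unadjusted p under 0.05, and by DESeq2 21 passed. The counts changed with single libraries, with 9 genes above 0 and 2 below 0, and 8 above and 1 below 0, without the fed 13 dpf library of experiment 1 or 2, 4 below 0 without the unfed 13 dpf library of experiment 1, 2 above and 4 below 0 without the fed 10 dpf library of experiment 2, 44 above and 2 below 0 without the unfed 10 dpf library of experiment 2, and 13 above and 2 below 0 without both libraries of conflicting age. Without the unfed 13 dpf library of experiment 1, 3289 genes passed at 13 dpf, against 2195 higher and 1831 lower at 10 dpf, and without that of experiment 2, 2721 passed at 13 dpf, against 2262 higher and 1790 lower at 10 dpf. Without the fed 13 dpf library of experiment 1, 6590 passed at 13 dpf, against 3795 higher and 3033 lower at 10 dpf, and without that of experiment 2, 6235 passed at 13 dpf, against 3493 higher and 3286 lower at 10 dpf.

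The cell division lists had higher medians at 13 dpf; a list's step between the ages was not tested. The mitosis median was 2.37 at 13 dpf, against 0.58 at 10 dpf, and 54 of its 65 members rose at 13 dpf, 50 of the list passing at 13 but not at 10 dpf. The DNA replication median was 2.15 at 13 dpf, against 1.40 at 10 dpf, with 52 of 58 rises. For defence and oxidant genes the median was -2.12 at 13 dpf, against -1.41 at 10 dpf, and 28 of 44 fell. Ribosome biogenesis had a median of 0.98 at 13 dpf, against 1.27 at 10 dpf, with 44 of 61 rises. Lipid absorption genes rose in 16 of 42 members at 13 dpf, against 5 at 10 dpf, and 6 fell at each age. Brush border genes rose in 6 of 53 at 13 dpf, against 0 at 10 dpf, and 2 fell at each age. Of all genes tested, 16.7% were higher and 14.4% lower at 13 dpf. The brush border share of rises was below the first of these. Without both libraries of conflicting age the mitosis median at 10 dpf was 1.48.

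At 16 dpf, in experiment 2 alone and with no replicate, the median log2 ratio was 3.40 for cholesterol synthesis, 1.84 for mitosis, 0.21 for ribosome biogenesis, 1.51 for lipid absorption and 0.47 for the brush border list. cyp7a1.L was 1 of 2 genes with opposite calls at the 2 ages: its log2 fold change was 1.62 at 13 dpf, against -2.43 at 10 dpf, and its ratio at 16 dpf was -3.89. The test of its difference between the ages gave an adjusted p of 0.287. The other was itih2.L. Its 10 dpf call was lost without any 1 of the 10 dpf libraries, with no block and with ages from the stage field.

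**Figure D5:**
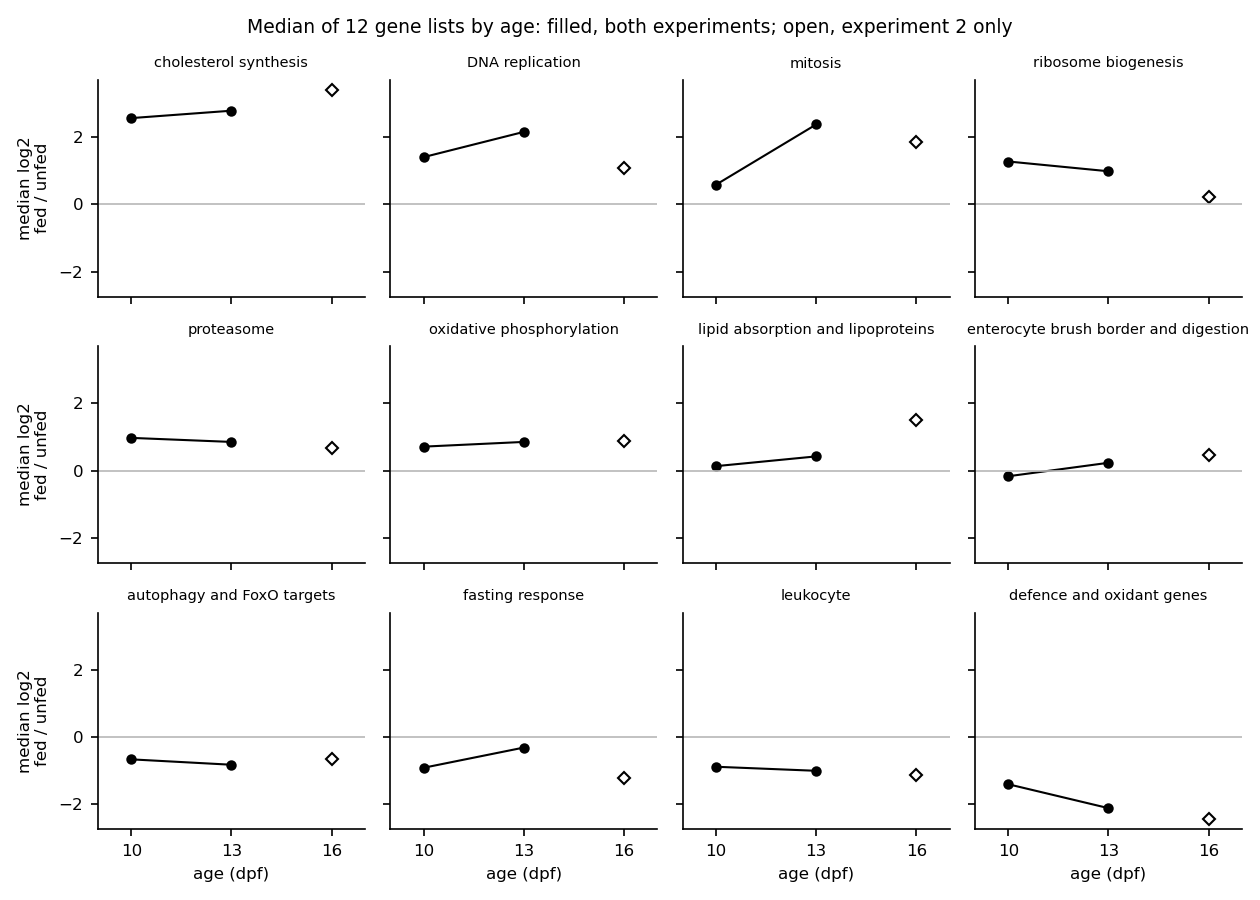
Median fed over unfed log2 value of 12 gene lists (y axis) at each age in dpf (x axis); filled circles joined by a line are medians of fitted log2 fold changes over both experiments, and open diamonds at 16 dpf are medians of log2 ratios in experiment 2 alone. Cholesterol synthesis is at 2.56, 2.78 and 3.40 at 10, 13 and 16 dpf, and mitosis is at 0.58 at 10 dpf and 2.37 at 13 dpf.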

How the data were processed

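RNA was sequenced from pooled intestinal tubes. The authors aligned reads with HISAT2 and made read counts with featureCounts, per the submitters' processing notes; no source used here gives versions, genome build, annotation or the handling of multi-mapping reads. The tables as deposited have raw read counts for each transcript row, its length and RPKM values; 10 RPKM columns were not used. A read could count for each overlapping transcript, so each gene was represented by its transcript of highest total count. Names came from RefSeq's gene table (Xenopus_laevis_v10.1), in which 27615 of 33771 genes matched, holding 93.3% of gene counts; rows with no name held 0.0738% of counts and named rows with no accession 0.136%. The deposited "other" column, the length in bases, served a length-trend check. Of 9839 genes with several variants, 82.9% had their top variants within 10% of each other. Reads shared between L and S copies may be split between them; 33 pairs of genes had nearly identical counts, and none is named.

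Counts were tested with edgeR 4.0.16 (R 4.3.3; filterByExpr, TMM factors 0.848 to 1.098, robust quasi-likelihood) over all 10 libraries with 6 groups and the experiment as block, because the 10 dpf libraries alone leave 1 residual degree of freedom. p-values were adjusted by Benjamini-Hochberg over 23825 genes, threshold 0.05. An SE is the log2 fold change divided by the square root of F, and 95% intervals use t. CPM use TMM-scaled totals; log2 ratios per experiment use a prior count of 2. The replicate number is the experiment; the experiment differences of the groups correlated at r 0.336 to 0.524 in all 6 pairs of groups, so it was kept as a pairing block.

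Named genes: the 12 highest and 12 lowest called log2 fold changes with the same sign in both experiments and a mean of at least 5 CPM, up to 4 called genes per list by p, 10 level genes, and 6 each way for the gap between experiments; further list members, given to show a list's range, were chosen after their values were seen. Genes that changed later or earlier were to be named by the test of 13 minus 10 dpf, and none passed. Members and lists were chosen with earlier results of these data known. Symbols of the 36 lists that matched no gene were left out. Alternatives were DESeq2 1.42.0, other scaling, filter, block, age field, transcript handling, length trend and leaving out each library. The script was tested on simulated data. Sequences are not shown. Some members of the named sets are not reported here.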

Additional observations from a re-analysis of the deposited data

How the results depend on the processing

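No gene named as called at 10 dpf changed direction. In some lists falls outnumbered rises with all libraries and rises outnumbered falls in other fits, and some list medians changed sign. Without 1 library at 10 dpf, the median was -0.046 for cytosolic ribosomal proteins, 0.015 for brush border genes and -0.49 for exocrine pancreas (fed, experiment 1), -0.11 for lipid absorption and -0.04 for nutrient transporters (fed, experiment 2), and -0.15 for mitosis and 0.003 for goblet genes (unfed, experiment 2). Without the 2 libraries of conflicting age it was 0.011 for liver and -0.18 for exocrine pancreas, which was at -0.09 with ages from the stage field. With a length trend removed it was -0.13 for cytosolic ribosomal proteins and 0.033 for thyroid hormone genes, and with all transcript rows 0.063 for blood and vessels. The enteroendocrine median, 0.014, was between -0.039 and -0.003 in 5 fits. That more genes passed at 13 than at 10 dpf turned round without any 1 of the 13 dpf libraries. Those fits leave 1 library in a 13 dpf group and so cannot decide the order. Paired fit: with no replicate block 1122 genes were higher, 707 lower, 120 within 1.5-fold, 5166 within 2-fold and 3690 passed at 13 dpf. Ages from the stage field gave 1651 higher, 1270 lower, 99 and 4732 within 1.5- and 2-fold, and 3326 at 13 dpf. DESeq2 gave 1262 lower, 73 and 4956 within the intervals, 4819 at 13 dpf, and 12 genes above and 9 below 0 for 13 minus 10 dpf. All transcript rows gave 5528 higher, 4892 lower, 2444 and 18128 within, and 15520 at 13 dpf, of more rows. Only the 10 dpf libraries gave 1751 within 1.5-fold and a length trend removed 1453. With no filter 1 gene was above and 1 below 0 for 13 minus 10 dpf. Without the 2 libraries of conflicting age, a choice made after seeing the data, 251 genes were within 1.5-fold, and 13 and 2 passed above and below 0. Leaving out 1 library in turn gave 534 to 3795 higher, 383 to 3286 lower, 0 to 2124 and 3345 to 9396 within 1.5- and 2-fold, 0 to 44 above and 0 to 4 below 0 for 13 minus 10 dpf, 0 to 13 for the difference between experiments and 2721 to 7394 at 13 dpf. The cause of these shifts was not tested. The test of the difference between experiments could not be made without any of the 10 dpf libraries, and was not run on those libraries alone, with no block or with ages from the stage field. With 2 libraries a group, 2-fold changes can be missed.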
